A study of Mus musculus with 8 samples.

Results

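The genes examined here were the integrin subunits and laminin chains, taken as the protein-coding genes of GENCODE vM1 whose symbols name an integrin alpha subunit (Itga), an integrin beta subunit (Itgb) or a laminin alpha, beta or gamma chain (Lama, Lamb, Lamc). The rule reads the symbol alone and no measured value, although the family and its lists were picked with earlier results of these data known. It found 37 genes of 22367 protein-coding genes, made up of 18 alpha subunits, 8 beta subunits and 11 laminin chains. Tumors were isografts of Lewis lung carcinoma (LLC), a mouse lung cancer cell line, grown under the skin of female C57BL/6J mice. LLC-NR was drug sensitive, and LLC-R was drug resistant after repeated selection in mice under VEGF-Trap, a decoy receptor that binds vascular endothelial growth factor. H3K4me3, H3K9ac, H3K27me3 and H3K36me3 were profiled by ChIP-seq of micrococcal nuclease-digested chromatin in 1 library per tumor line and mark, 8 libraries in all. There were no replicates, so the lines could not be tested against each other, and every difference below compares 1 library with 1 other library. The chromatin came from whole tumor tissue, which holds blood, vessel and stroma cells of the host beside the carcinoma cells, and in such bulk tissue fewer cells of a type and a lower mark per cell cannot be told apart.

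Integrins are cell surface receptors made of an alpha and a beta subunit, and they hold cells to matrix or to other cells. Laminins are trimers of an alpha, a beta and a gamma chain, form the sheet of the basement membrane around epithelia and vessels, and are ligands of several integrins. Some integrin subunits are largely confined to white blood cells, where they serve adhesion to the vessel wall and phagocytosis, whereas others are used by most adherent cells. H3K4me3 and H3K9ac mark promoters of active genes, H3K36me3 lies along transcribed gene bodies, and H3K27me3 marks genes silenced by Polycomb. The members were set in 5 lists. The leukocyte-restricted list held 7 integrins: Itgal, Itgam, Itgax and Itgad, which are alpha partners of Itgb2, then Itgb2 itself, and Itgae and its partner Itgb7. The other lists held 11 widely used integrins, 6 tissue-restricted integrins, 11 laminin chains, and Itga4 and Itga2b as the other hematopoietic subunits.

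The sequence around the transcription start site (TSS) set the lists apart before any mark was counted. The following promoters show this contrast, with 270 bases before the TSS and 30 after it, read 5′ to 3′ on the gene's strand from the mm9 assembly, and with each CpG in capitals. Itgb1, the beta subunit shared by most matrix receptors, and Itgav, the alpha subunit of the vitronectin receptors, stand for the widely used list. Itgb2, the common beta subunit of the leukocyte receptors, and its partners Itgal and Itgam stand for the leukocyte-restricted list.
Itgb1, chr8:131209284-131209583, plus strand: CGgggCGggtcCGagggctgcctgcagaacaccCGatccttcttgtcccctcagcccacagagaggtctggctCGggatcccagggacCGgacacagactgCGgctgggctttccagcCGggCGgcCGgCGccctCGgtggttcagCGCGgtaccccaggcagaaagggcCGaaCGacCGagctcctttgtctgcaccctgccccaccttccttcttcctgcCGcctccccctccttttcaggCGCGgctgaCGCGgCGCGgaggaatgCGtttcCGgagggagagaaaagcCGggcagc
Itgav, chr2:83564284-83564583, plus strand: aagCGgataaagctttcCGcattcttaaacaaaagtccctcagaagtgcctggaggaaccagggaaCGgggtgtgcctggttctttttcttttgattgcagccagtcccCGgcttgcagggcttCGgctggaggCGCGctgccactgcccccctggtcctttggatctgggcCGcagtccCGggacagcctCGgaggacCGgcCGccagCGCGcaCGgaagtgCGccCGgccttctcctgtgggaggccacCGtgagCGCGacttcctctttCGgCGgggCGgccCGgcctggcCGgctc
Itgb2, chr10:76992727-76993026, plus strand: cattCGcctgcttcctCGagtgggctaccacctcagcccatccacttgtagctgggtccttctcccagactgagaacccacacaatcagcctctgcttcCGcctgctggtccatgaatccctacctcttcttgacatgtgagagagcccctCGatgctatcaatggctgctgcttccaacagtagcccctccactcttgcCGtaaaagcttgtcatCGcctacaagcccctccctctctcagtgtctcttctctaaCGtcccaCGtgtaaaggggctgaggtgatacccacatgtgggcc
Itgal, chr7:134439504-134439803, plus strand: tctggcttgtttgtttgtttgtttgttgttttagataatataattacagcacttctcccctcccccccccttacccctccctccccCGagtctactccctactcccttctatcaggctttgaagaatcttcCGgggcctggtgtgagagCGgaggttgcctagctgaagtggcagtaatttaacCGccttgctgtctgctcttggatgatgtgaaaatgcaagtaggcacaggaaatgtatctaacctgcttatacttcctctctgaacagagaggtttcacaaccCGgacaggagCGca
Itgam, chr7:135205891-135206190, plus strand: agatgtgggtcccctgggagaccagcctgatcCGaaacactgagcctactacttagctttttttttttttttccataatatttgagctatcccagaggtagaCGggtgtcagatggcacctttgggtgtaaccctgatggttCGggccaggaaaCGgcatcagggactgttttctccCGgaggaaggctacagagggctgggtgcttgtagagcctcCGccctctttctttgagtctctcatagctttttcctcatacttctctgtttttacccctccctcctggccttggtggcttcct
Itgb1 and Itgav held 27 and 25 CpGs in these 300 bases, against 8 in Itgb2 and 6 each in Itgal and Itgam. The G/C content was 68.7% in Itgb1 and 65.7% in Itgav but 49% in Itgal, 51% in Itgam and 56% in Itgb2.

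Over the whole promoter region, which began 1 kb before the TSS and ended 0.5 kb past it, the median CpG observed-to-expected (O/E) ratio was 0.217 in the leukocyte-restricted list and 0.604 in the widely used list. Promoters were classed as CpG-rich (HCP), intermediate (ICP) or CpG-poor (LCP) from intervals of 500 bp. In the leukocyte-restricted list 0 of 7 were HCPs, 2 were ICPs and 5 were LCPs. In the widely used list 10 of 11 were HCPs, and 1, Itga6, was an LCP at the TSS shared by most of its transcripts. The laminin chains had 8 HCPs, 2 ICPs and 1 LCP, the last being Lamb3, a chain of the epidermal laminin. The letters GGGCGG, known as a core of Sp1 sites, were found on either strand from 250 bases before to 50 after the TSS in 9 of 11 widely used integrins, 7 of 11 laminin chains and 1 of 7 leukocyte-restricted integrins, against 43.7% of all promoters. GAGGAA, known as a core of sites of the myeloid factor PU.1, was found in the same window in 3 of 7 leukocyte-restricted integrins, 3 of 11 widely used integrins and 7 of 11 laminin chains, against 27.9% of all promoters. Among the leukocyte-restricted genes it occurred 3 times in Itgam and 1 time each in Itgal and Itgb7.

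Despite the few CpGs, the median promoter of the leukocyte-restricted integrins held as many H3K4me3 peaks as that of the widely used ones in LLC-NR. The unit throughout is the number of peaks of 147 bp whose midpoint fell in the region, since the deposited files give peak positions without heights. The median was 6 peaks per promoter in both lists in LLC-NR, against 5 over all 22367 promoters. This equality rests on the promoter region and the list, since the leukocyte-restricted median was lower by 1 peak with 0.5 kb on either side of the TSS, with peaks counted by any base or with Itga4 and Itga2b added, and by 1.5 peaks in the wider promoter described below. In LLC-R the median was 4 in the leukocyte-restricted list and 5 in the widely used list, against 5 over all promoters. The H3K4me3 libraries held nearly equal numbers of peaks, 5678337 in LLC-NR against 5660458 in LLC-R, so scaling by own peaks hardly changes the raw numbers of this mark. With that scaling 12 members were higher in LLC-R, but after division by uniquely mapped reads 29 were. The median log2 ratio of LLC-R over LLC-NR of all promoters went from -0.01 to 0.26 with that division. The counts of higher and lower H3K4me3 promoters below thus rest on peak numbers.

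Across all 37 members, the number of H3K4me3 peaks went with CpG O/E, with a Spearman correlation of 0.47 in LLC-NR against 0.51 in LLC-R. Over the 13506 genes of at least 10 kb it was 0.58 and 0.55. The points of each library share its depth and base composition bias, so these correlations are a description only. Within their own CpG class, the leukocyte-restricted promoters ranked high in LLC-NR, at a median percentile of 83.4 among promoters of the same class, and at 64.9 in LLC-R. The widely used promoters ranked at a median percentile of 43.1 in LLC-NR against 29.0 in LLC-R within theirs. Because many promoters share a number of peaks, the median HCP itself sits at a percentile of 43.1 in LLC-NR against 58.9 in LLC-R, and the median LCP at 42.2 against 43.1. All LCPs had a median of 3 H3K4me3 peaks in either line and all HCPs had 6.

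**Figure D1:**
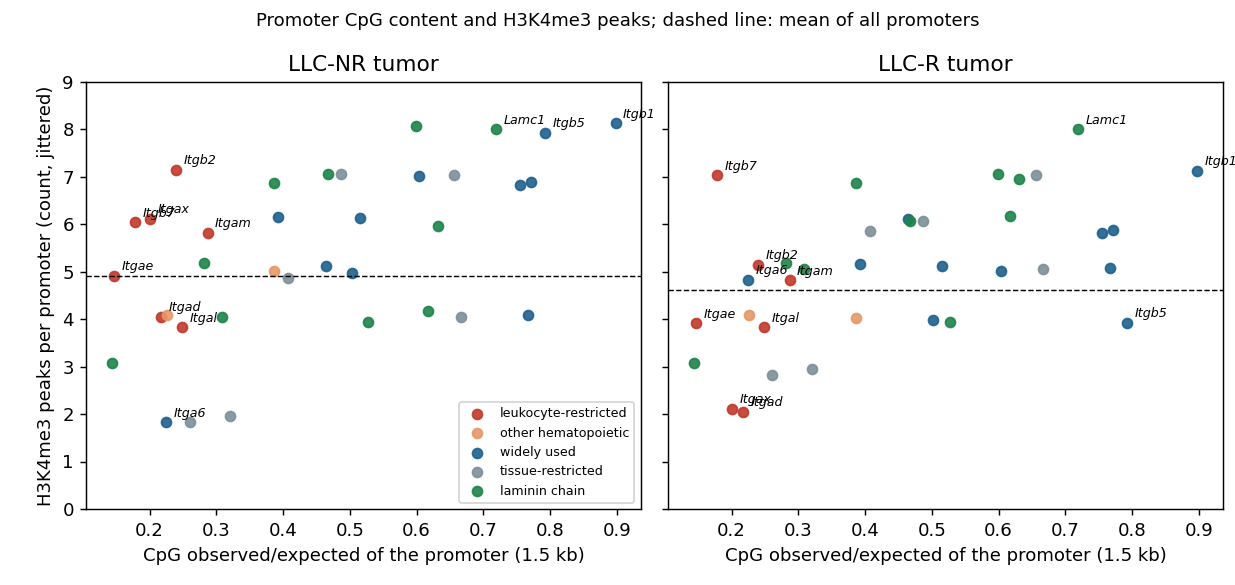
H3K4me3 peaks per promoter (count, vertical axis, with a small random shift so that points do not hide each other) against the CpG O/E ratio of the 1.5 kb promoter (horizontal axis) in the LLC-NR and LLC-R tumors. Each point is 1 of 36 of the 37 genes, colored by list, and the dashed line is the mean of all promoters, 4.91 in LLC-NR against 4.6 in LLC-R. The leukocyte-restricted genes lie at the left with 4 to 7 peaks in LLC-NR, and Itgax and Itgad drop to 2 in LLC-R.

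Among the receptors of white blood cells, Itgb2 had 7 H3K4me3 peaks at its promoter in LLC-NR against 5 in LLC-R. Its myeloid partner Itgax, which encodes CD11c, had 6 and 2. Itgad, the neighbor of Itgax, had 4 and 2. The drop at Itgax and Itgad passed 1.5-fold after each library was scaled by its own peaks, with log2 ratios of LLC-R over LLC-NR of -1.39 and -0.86. The TSS used for Itgad lies 19.6 kb inside the gene, and at its most upstream TSS the numbers were 3 and 2, a log2 ratio of -0.50 and short of 1.5-fold. Itgam, the alpha subunit of Mac-1, had 6 and 5, Itgae, the receptor of intraepithelial T cells for E-cadherin, had 5 and 4, and Itgal, the alpha subunit of LFA-1, had 4 and 4. A second annotated TSS of Itgal, 13.3 kb downstream, had 8 in LLC-NR against 4 in LLC-R. Itgb7, the beta subunit of the gut-homing receptors, had 6 and 7, and was the 1 member of this list that was higher in LLC-R.

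In sum, 5 of 7 leukocyte-restricted promoters had fewer H3K4me3 peaks in LLC-R, 1 had more and 1 had the same number. The same was seen in 8 of 11 widely used integrins with fewer and 3 with more, whereas over all promoters 43.5% had fewer and 25.6% more. The laminin chains went the other way, with 4 higher, 2 lower and 5 equal, and so did the tissue-restricted integrins, with 4 higher, 1 lower and 1 equal. The number of peaks summed over the leukocyte-restricted promoters was 38 in LLC-NR against 29 in LLC-R, and over the widely used promoters it was 65 and 58.

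Itgam, Itgax and Itgad lie side by side on chromosome 7, Itgam at chr7:135206154-135271674, Itgax at chr7:135273061-135294171 and Itgad at chr7:135297890-135349015, with gaps of 1.39 kb and 3.72 kb between them. All are on the plus strand. The H3K4me3 peaks within 1 Mb on either side of Itgax had a log2 ratio of 0.01 and those around Itgad of 0.02, so the drop at these promoters was not shared by their surroundings. It was smaller in a wider promoter of 2 kb upstream to 1 kb downstream, where the log2 ratio was -0.33 at Itgax and -0.50 at Itgad, both short of 1.5-fold.

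Other markers of white blood cells had fewer H3K4me3 peaks in LLC-R about as often as promoters in general. Of 10 leukocyte markers 9 were found in the annotation, and 4 of these had fewer H3K4me3 peaks in LLC-R, 1 had more and 4 had the same number, beside the 43.5% fewer and 25.6% more of all promoters. Their summed H3K4me3 peaks were 44 in LLC-NR, with 2 to 7 per promoter, and 37 in LLC-R, with 1 to 6, and no marker was at 0 in any of the 3 promoter marks. Past 1.5-fold in H3K4me3, 3 of the 9 were lower in LLC-R and 0 higher, against 10.4% and 7.29% of all promoters. Among those lower were Ptprc, which encodes the pan-leukocyte antigen CD45, with 7 and 4, and Cd3e of T cells, with only 2 and 1. The part of a different number of leukocytes in the values of the leukocyte-restricted integrins was not tested. The 6 endothelial markers fell from 27 to 22 H3K4me3 peaks in sum and the 6 fibroblast markers from 31 to 29, while the 5 epithelial markers had 26 and 27. The 5 lung markers had 22 and 23 H3K4me3 peaks, 2 to 6 per promoter, so peak numbers did not show the lung label of the samples to be absent or present.

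H3K9ac and H3K27me3 at the leukocyte-restricted promoters are best read against their libraries, because the H3K9ac library of LLC-R held fewer peaks than that of LLC-NR and the H3K27me3 library of LLC-R held more. H3K9ac peaks were fewer in LLC-R at 6 of 7 leukocyte-restricted promoters, against 50.6% of all promoters, with a sum of 47 in LLC-NR against 37 in LLC-R. Itgae had the widest gap, with 8 and 4 peaks and a log2 ratio of -0.81, beside a median of -0.07 over all promoters. After division by uniquely mapped reads these became -0.12 and 0.61. The Itgae ratio was -0.21 from 2 kb upstream to 1 kb downstream and -0.51 with peaks counted by any base, both short of 1.5-fold. With 0.5 kb on either side of the TSS it stayed at -0.81. Itgax had 8 and 7, Itgal and Itgam each had 6 and 4, Itgad had 6 and 5, Itgb2 had 7 and 6, and Itgb7 had 6 and 7. H3K27me3 peaks were more numerous in LLC-R at 6 of 7, against 58.5% of all promoters, with a sum of 31 and 42. The largest steps were at the beta subunits, where Itgb2 and Itgb7 each had 3 H3K27me3 peaks in LLC-NR against 6 in LLC-R, a log2 ratio of 0.59 after scaling by the library's own peaks. Itgax, with 6 and 5, was the exception. At both beta subunits the sign depended on the scaling, since division by uniquely mapped reads gave -0.18. The median of all promoters went from -0.07 to -0.84 with that division. The 9 leukocyte markers described above had fewer H3K9ac peaks in LLC-R at 7, more at 0 and the same number at 2, with a sum of 62 and 50. Their H3K27me3 peaks were more numerous at 6, fewer at 2 and equal at 1, with a sum of 50 and 57. Other markers shared these directions in part. Summed H3K9ac fell from 43 to 31 in fibroblast markers, fewer at all 6, from 30 to 26 in epithelial and from 30 to 25 in lung markers. It rose from 32 to 35 in endothelial and from 23 to 24 in platelet markers. Summed H3K27me3 rose from 25 to 32 in epithelial and in lung markers, from 37 to 40 in fibroblast, 36 to 37 in endothelial and 21 to 24 in platelet markers.

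The 3 marks were combined into a state for each promoter. A promoter was called active when H3K4me3 or H3K9ac reached the mean of all promoters and H3K27me3 did not, bivalent when both kinds did, and repressive when H3K27me3 alone did. In LLC-NR, Itgb2, Itgb7, Itgal and Itgae were active and Itgam, Itgax and Itgad bivalent. In LLC-R, Itgax was active, Itgb2, Itgb7, Itgam and Itgad were bivalent, and Itgal and Itgae were repressive. The state was the same in both tumors in 2 of 7 leukocyte-restricted and 7 of 11 widely used integrins, and in 21 of all 37 members, against 13882 of 22367 promoters. Peak numbers close to the mean decide these states, and 1 peak more or less moves several of them. The H3K27me3 mean of all promoters, 4.55 in LLC-NR against 5.45 in LLC-R, was close to that of windows far from any TSS, 4.23 and 5.30. A bivalent or repressive state therefore does not show the mark.

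**Figure D2:**
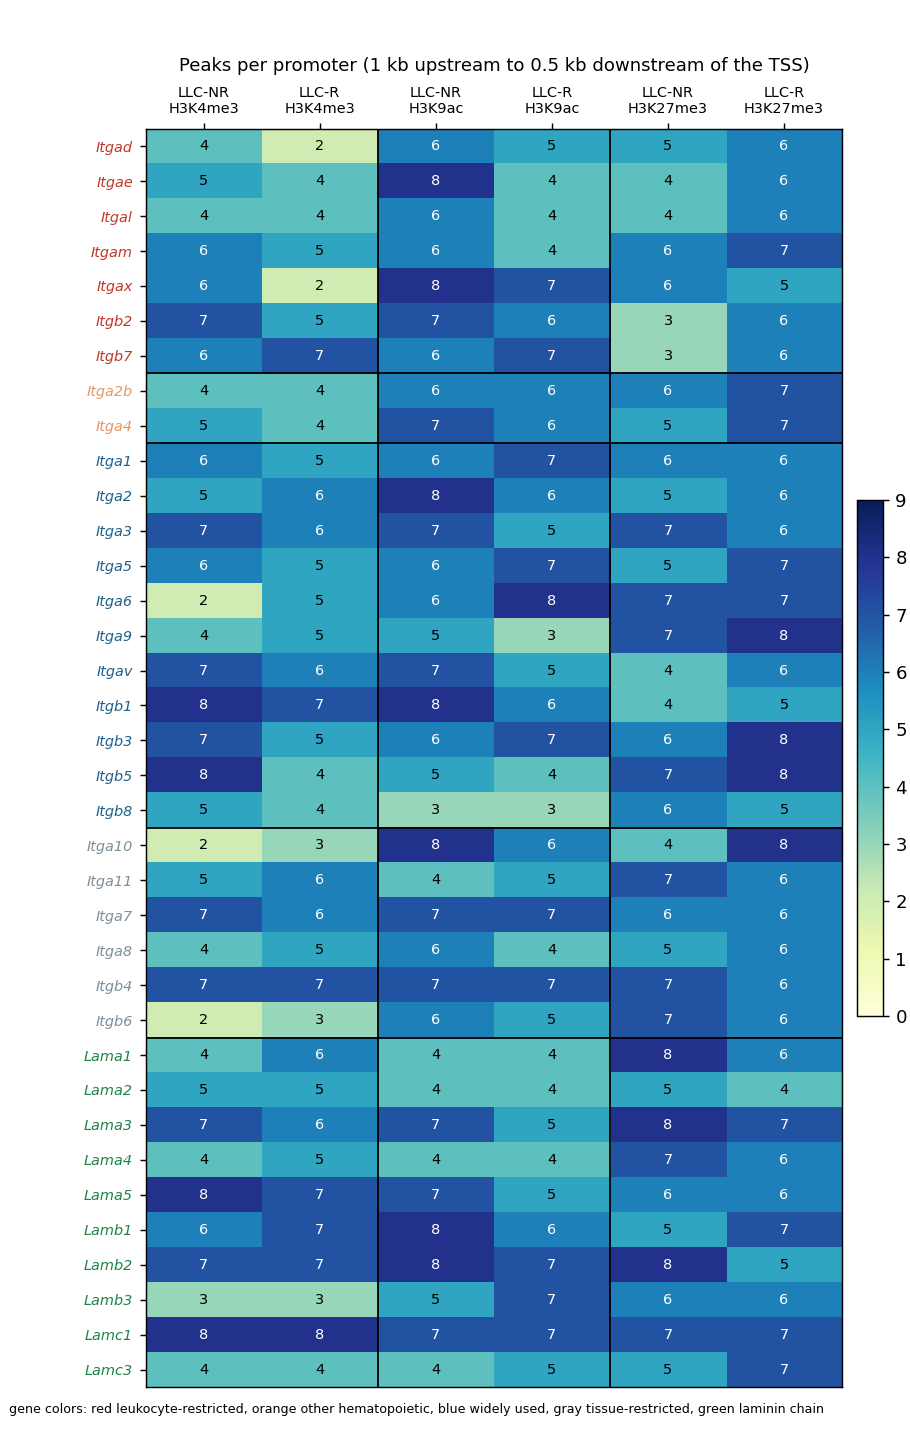
Peaks per promoter (count, in each cell and as color) of H3K4me3, H3K9ac and H3K27me3 in LLC-NR and LLC-R for 36 of the 37 genes, in rows ordered by list, with the leukocyte-restricted genes on top and the laminin chains at the bottom. Itgax and Itgad show 2 H3K4me3 peaks in LLC-R, Itgb2 and Itgb7 show 3 H3K27me3 peaks in LLC-NR, and Lamc1 has 7 or 8 peaks in every column.

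At the leukocyte-restricted promoters, as at LCPs in general, few H3K4me3 peaks lay at the same position in both tumors. Of the 38 LLC-NR peaks of this list, 9 (23.7%) had an LLC-R peak within 30 bp. In the widely used list this held for 27 of 65 (41.5%), and in the laminin chains for 33 of 60 (55%). Over all promoters the share was 43.9%, with 51.2% in HCPs and 26.7% in LCPs. Itgb7 alone held 6 of the 9 shared peaks of the leukocyte-restricted list, with all of its 6 LLC-NR peaks shared, and the other 6 genes shared 3 of 32 (9.38%). Itgb7 was set apart only after its values were seen. At Itgb1 the LLC-NR midpoints at -164, 235 and 388 bp from the TSS had LLC-R partners at -164, 234 and 385 bp. At Itgb2 the midpoint at -415 bp had a partner at -417 bp, whereas the midpoints at -20, 191 and 339 bp had none within 30 bp, the LLC-R peaks downstream being at 267 and 462 bp. At Itgal the LLC-NR midpoints were -742, -568, -184 and 466 bp and those of LLC-R were -601, -321, 0 and 169 bp, with no pair within 30 bp.

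Just upstream of the TSS, from -200 bp to the TSS, the leukocyte-restricted list held 4.29 H3K4me3 peaks per kb in LLC-NR against 1.43 in LLC-R. The widely used list held 4.55 in each, and the laminin chains 3.64 in each. Over the 1 kb downstream of the TSS the leukocyte-restricted list had 3.71 and 3.14 peaks per kb. With 7 genes these windows hold few peaks, and no counting error stands for the variation between tumors.

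**Figure D3:**
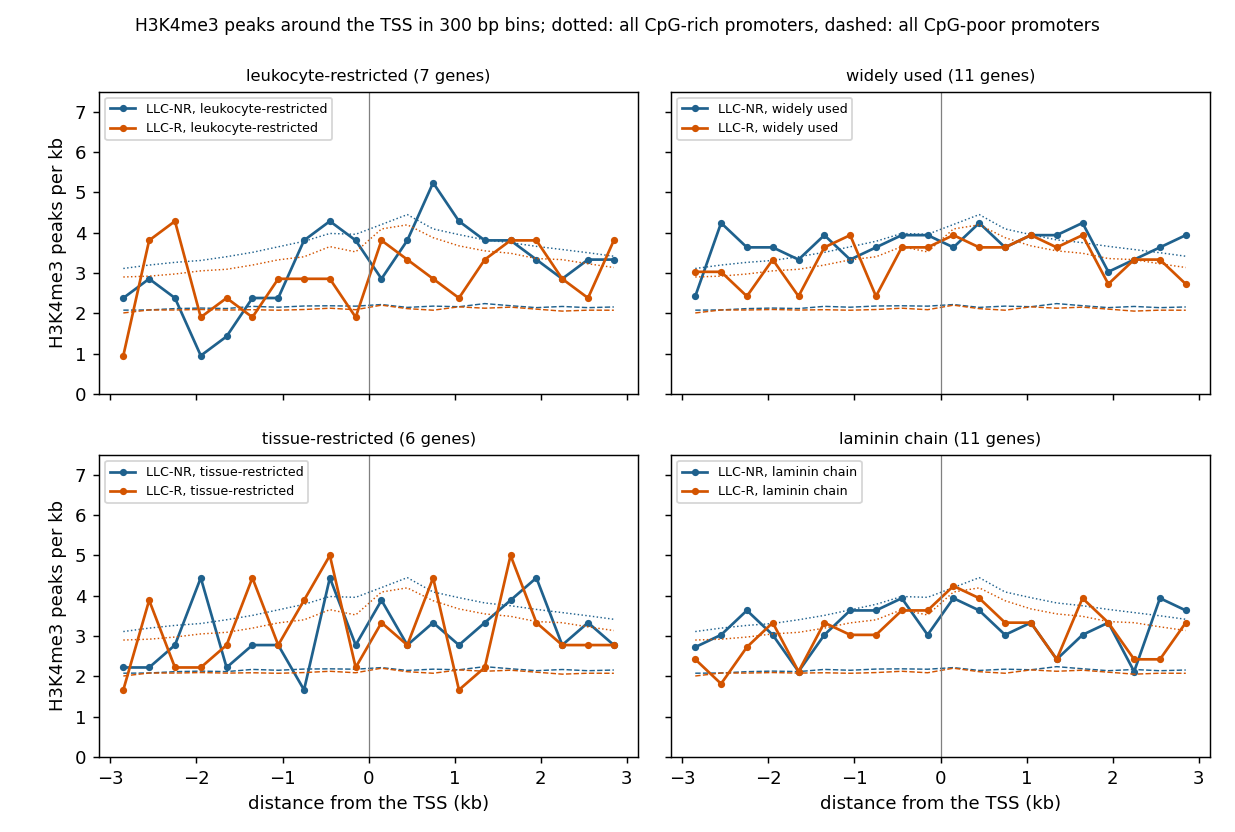
H3K4me3 peaks per kb (vertical axis) in 300-bp bins by distance from the TSS in kb (horizontal axis), averaged over the 7 leukocyte-restricted, 11 widely used and 6 tissue-restricted integrins and the 11 laminin chains, with LLC-NR in blue and LLC-R in orange. Dotted lines are all HCPs and dashed lines all LCPs. In the 3 bins upstream of the TSS the leukocyte-restricted curve of LLC-NR lies above that of LLC-R, and in the bin just downstream it lies below.

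Widely used integrins had 2 to 8 H3K4me3 peaks per promoter in LLC-NR, against 4 to 7 in LLC-R. Windows of the same length at least 5 kb from any TSS held a mean of 3.21 and 3.22, so a small number of peaks does not show the mark. Itgb1 had 8 and 7 H3K4me3, 8 and 6 H3K9ac, and 4 and 5 H3K27me3 (LLC-NR named ahead of LLC-R here and below), and was active in both tumors, as no other member was. Itgav had 7 and 6 H3K4me3, 7 and 5 H3K9ac, and 4 and 6 H3K27me3 peaks. Itga5, the alpha subunit of the fibronectin receptor, had 6 and 5 H3K4me3 and 5 and 7 H3K27me3 peaks, and Itgb3, the beta subunit that pairs with Itgav in sprouting endothelium, had 7 and 5 and 6 and 8. Itgb5, another partner of Itgav, had 8 H3K4me3 peaks in LLC-NR against 4 in LLC-R, a log2 ratio of -0.92. Itga6, the alpha subunit of the laminin receptors of epithelia, had 2 and 5, a log2 ratio of 1.14 and the only H3K4me3 value past 1.5-fold upward.

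These single-gene values are touched by which TSS and which region was taken. The Itga6 count is from the TSS shared by most transcripts, with a CpG O/E of 0.23. A second annotated TSS of Itga6, 41.3 kb downstream and with a CpG O/E of 0.82, had 6 H3K4me3 peaks in LLC-NR against 7 in LLC-R, so the 1.5-fold difference was not seen there. The Itgb5 gene, at chr16:33829751-33949239, lies where the share of each library's peaks was lower in LLC-R for every mark. Within 1 Mb on either side of it the log2 ratio was -0.41 for H3K4me3, -0.14 for H3K9ac, -0.23 for H3K27me3 and -0.32 for H3K36me3. Without scaling these became -0.42, -0.26, 0.10 and 0.13, so the sign of the last 2 depended on it. Itgb5 was the only member below the central 95% of all genes in all 4 marks. With its surroundings subtracted, the Itgb5 promoter difference in H3K4me3 was -0.51, short of 1.5-fold.

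Counted over all 37 members with both directions together, promoters past 1.5-fold were no more frequent than among genes in general. They were 4, 2 and 6 for H3K4me3, H3K9ac and H3K27me3, against 17.7%, 10.9% and 17.5% of all promoters. For H3K4me3, 1 of 37 was higher in LLC-R (Itga6), against 7.29% of all promoters, and 3 were lower (Itgb5, Itgax, Itgad), against 10.4%. For H3K9ac, 0 were higher, against 4.07%, and 2 were lower, with Itgae among them, against 6.8%. The H3K9ac ratios ran from that of Itgae up to 0.56 at Lamb3, with 5 and 7 peaks. For H3K27me3, 3 were higher (Itgb2, Itgb7 and Itga10, a collagen receptor of cartilage), against 10.8%, and 3 were lower (Lama1, Lama2, Lamb2), against 6.69%. The H3K27me3 rise of the former 3 turned to -0.18, -0.18 and -0.16 after division by uniquely mapped reads, beside a median of -0.84 over all promoters. None of the 3 lower calls passed 1.5-fold from 2 kb upstream to 1 kb downstream, and Lama2 turned to 0.21 with 0.5 kb on either side of the TSS. Of the 3 higher calls, only Itgb2 passed it in the wider promoter, at 0.59, while Itgb7 was at 0.40 and Itga10 at 0.51. With peaks counted by any base, Itgb7 was at 0.14. The median log2 ratio over the members was -0.01 for H3K4me3, -0.09 for H3K9ac and -0.13 for H3K27me3, beside -0.01, -0.07 and -0.07 over all promoters. A pseudocount, set at 10% of the average promoter, was added before these ratios were taken, and they therefore understate the change of promoters with few peaks.

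The laminin chains, which are ligands of the receptors above, had a median promoter number of 5 for H3K4me3 in LLC-NR against 6 in LLC-R. Lamc1, the gamma chain shared by most laminins, had 8 H3K4me3 peaks in each tumor, the highest of the list, with 7 H3K9ac and 7 H3K27me3 peaks in each. Lama5, the alpha chain of most adult basement membranes, had 8 and 7 H3K4me3 peaks, and Lama4, the alpha chain of the vascular laminins, had 4 and 5. The alpha and beta chains of the epidermal laminin differed from each other, with 7 and 6 H3K4me3 peaks at Lama3 and 3 and 3 at Lamb3. Itgb4, the hemidesmosome receptor of that laminin, had 7 in each. H3K27me3 peaks were fewer in LLC-R at 5 of 11 laminin promoters and more at 2, although 58.5% of all promoters had more. Lamb2 had 8 and 5, Lama1, the embryonic alpha chain, 8 and 6, and Lama2, the alpha chain of muscle, 5 and 4. In LLC-NR, 4 laminin promoters were repressive (Lama1, Lama4, Lamb3, Lamc3) and 0 were active, and in LLC-R 0 were repressive and 2 were active (Lama2 and Lamb2). Among all promoters, repressive ones made up 8.2% in LLC-NR against 5.73% in LLC-R, and active ones 29.8% against 28.4%.

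In gene bodies, few members combined H3K36me3 above the median with H3K27me3 below it, and a larger set had the opposite. All 37 members are at least 10 kb long, so each was ranked among the 13506 genes of that length in the same library. H3K36me3 was at or above the median and H3K27me3 below it in both tumors in 4 of 37 members, Itgb1, Itgav, Itgb2 and Itgb7, against 24.8% of long genes. The opposite pattern, H3K36me3 below and H3K27me3 at or above the median in both tumors, was found in 17 of 37 members, against 25.6% of long genes. It held Itgae and Itgax of the leukocyte-restricted list, Itga2, Itga9, Itgb3 and Itgb8 of the widely used list, 4 tissue-restricted integrins, 6 laminin chains and Itga2b. The median percentile of the members for H3K27me3 in the gene body was 68.9 in LLC-NR against 74.5 in LLC-R, and for H3K36me3 it was 40.1 and 45.3.

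Itgb1 had 4.04 H3K36me3 peaks per kb of gene body in LLC-NR against 4.14 in LLC-R, at percentiles of 90.7 and 67. Its H3K27me3 density was 2.29 and 3.70 per kb, at percentiles of 30.9 and 41.2. Itgav had 3.85 and 4.13 H3K36me3 peaks per kb and 2.08 and 3.57 H3K27me3 peaks per kb. These were the widely used members that combined high H3K36me3 with low H3K27me3 in both tumors, and Itga5 joined them in LLC-R, with 4.36 H3K36me3 and 3.60 H3K27me3 peaks per kb.

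Of the leukocyte-restricted genes, Itgb2 had 3.72 and 4.17 H3K36me3 peaks per kb in LLC-NR and LLC-R, and 1.86 and 3.78 H3K27me3 peaks per kb. Its H3K27me3 density in LLC-NR was the lowest of all 37 members. Itgb7 had 3.76 and 4.45 H3K36me3 peaks per kb, and 2.32 and 3.51 H3K27me3 peaks per kb. The alpha partners of Itgb2 were unlike it. Itgad had 1.84 and 3.05 H3K36me3 peaks per kb, the lowest of the members in each tumor, and Itgam had 2.89 and 3.37, at percentiles of 36.9 and 11.3. Itgax, with 2.84 and 3.79, and Itgae, with 2.94 and 3.82, lay below the median of long genes, and Itgal, with 3.24 and 4.12, lay just above it. Medians over the lists were 2.94 and 3.82 H3K36me3 peaks per kb for the leukocyte-restricted and 3.48 and 3.97 for the widely used integrins. The LLC-NR difference of -0.55 shrank to -0.0488 when the tissue-restricted integrins were added to the widely used list.

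Among laminin chains, Lamb1, the beta chain that pairs with Lamc1, had 4.32 and 4.44 H3K36me3 peaks per kb, at percentiles of 99.4 and 96.6. Lama5 was at percentiles of 58.0 and 98.8, with 3.39 and 4.53 peaks per kb, and Lamb2, the beta chain of vessels and synapses, was at 45.6 and 95.0. Lamb3 had the highest H3K27me3 density of the members in LLC-NR, 4.15 per kb at a percentile of 96.0, and 4.25 in LLC-R. Lama4 was at 3.68 and 4.13. Itga7, the laminin receptor of muscle, was at a percentile of 75.4 for H3K36me3 in LLC-NR against 99.5 in LLC-R, while its H3K27me3 was at 64.0 and 90.0. Across the members, H3K36me3 and H3K27me3 densities ran against each other in LLC-NR, with a Spearman correlation of -0.63, beside -0.34 over the 13506 long genes. In LLC-R it was -0.20 and 0.01.

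**Figure D4:**
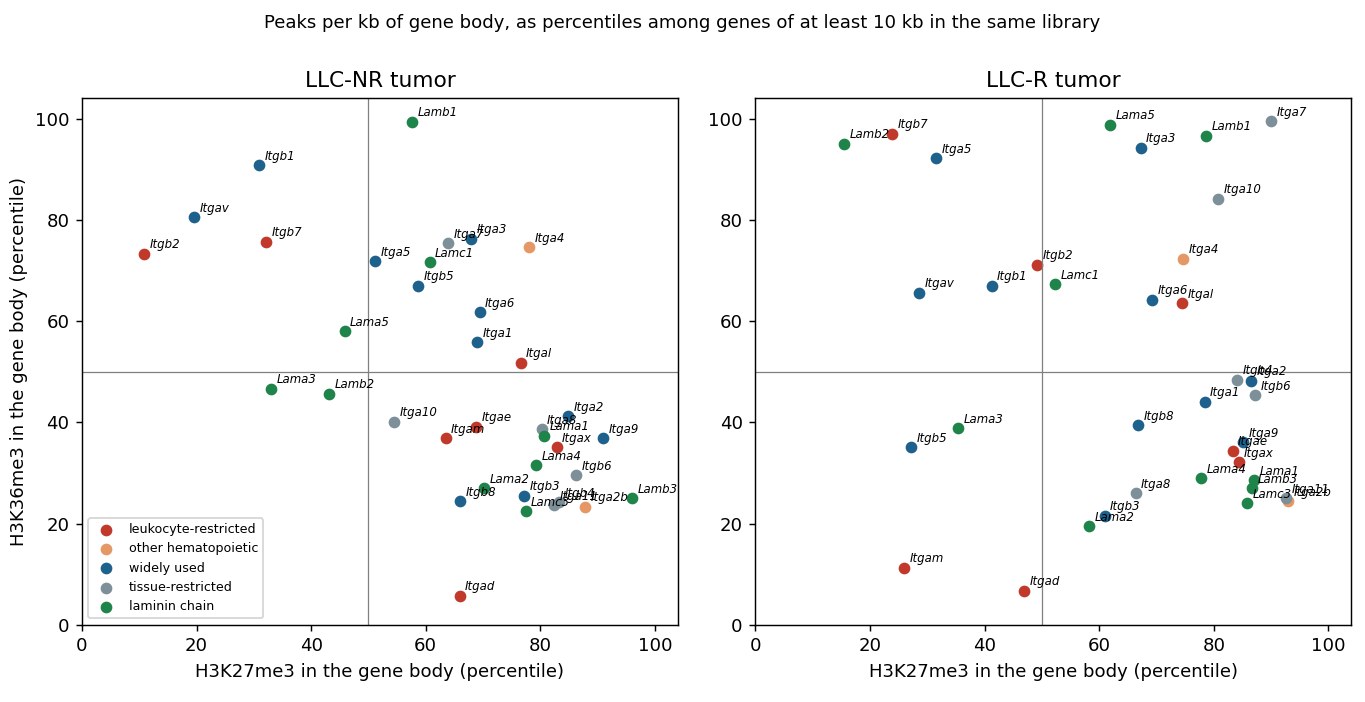
H3K36me3 in the gene body (vertical axis) against H3K27me3 in the gene body (horizontal axis), each as a percentile among genes of at least 10 kb in the same library, for 36 of the 37 members in LLC-NR and LLC-R. Gray lines mark the 50th percentile, and colors mark the lists. Itgb1, Itgav, Itgb2 and Itgb7 lie in the upper left of both panels, and 16 of the members drawn lie in the lower right of both.

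Between the tumors, gene bodies were called at a log2 ratio of 0.32 or more in either direction, after scaling by the library's own peaks. H3K27me3 density was called higher in LLC-R in 3 of 37 members, Itgb2, Itgav and Itgb1, against 24.2% of all genes and 24.3% of long genes. Their log2 ratios were 0.62, 0.41 and 0.33, and turned to -0.15, -0.36 and -0.44 after division by uniquely mapped reads. The median of all genes went from 0.06 to -0.71. It was called lower in 0 members, against 4.36% of all genes and 0.911% of long genes. H3K36me3 was called lower in 4, Lamb1, Itgb1, Itgav and Itgb5, with log2 ratios of -0.38, -0.38, -0.32 and -0.33, against 16.2% of all genes and 16% of long genes, and higher in 0, against 12% and 4.03%. With their surroundings subtracted these became -0.20, -0.30, -0.28 and -0.01, none of them called. The opposite ends were Lamb3 for H3K27me3, at -0.27, and Itgad for H3K36me3, at 0.24. The unscaled H3K36me3 densities of the 4 genes called lower were slightly higher in LLC-R, since that library held 8747519 peaks against 6432447 in LLC-NR.

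Gene body ratios were set beside the LLC-NR density. That density is also the denominator of the ratio, so a ratio that falls as the density rises is partly built in, and the values are a description only. Among long genes, the 3377 with the lowest H3K27me3 density in LLC-NR, up to 2.19 peaks per kb, had a median log2 ratio of 0.43, and the 3377 with the highest, from 3.56 per kb, had -0.20. Itgb2 and Itgav belong to the former, Itgb1 to the next group, which reached 2.69 per kb and had a median of 0.24, and the 16 members in the latter had a median of -0.16. For H3K36me3, the 3377 long genes with the highest LLC-NR density, from 3.75 per kb, had a median log2 ratio of -0.33, and 56.9% of them were called lower. Lamb1, Itgb1 and Itgav are among these. The spread over the members was narrower in the deeper libraries of LLC-R, with a coefficient of variation of 6.88% for H3K27me3 against 18.3% in LLC-NR, and of 8.41% against 17.3% for H3K36me3. The part of depth in these differences was not tested.

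**Figure D5:**
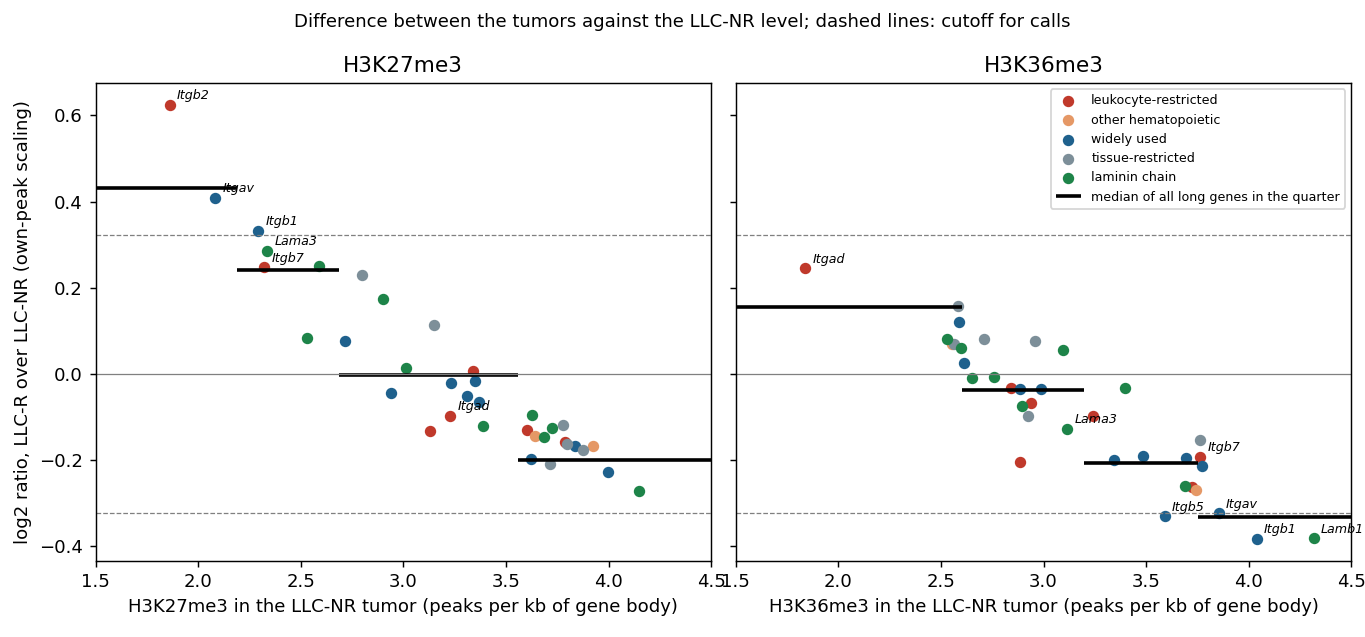
Log2 ratio of LLC-R over LLC-NR in the gene body (vertical axis, each library scaled by its own peaks) against the LLC-NR density in peaks per kb (horizontal axis) for H3K27me3 and H3K36me3. Points are 36 of the 37 members, colored by list, black bars are medians of all long genes in 4 equal groups by LLC-NR density, and dashed lines are the cutoff for calls, 0.32 on the log2 scale. The members follow the black bars, with Itgb2 above them at a log2 ratio of 0.62 for H3K27me3.

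H3K4me3 gene body density was called higher in 1 member, Lama3, against 7.82% of all genes and 2.94% of long genes, and lower in 0, against 8.4% and 2.5%. Lama3 had 1.78 H3K4me3 peaks per kb in LLC-NR against 2.49 in LLC-R, a log2 ratio of 0.44, and the 1 Mb on either side of it had 0.23. Once its surroundings were subtracted, it was 0.21, short of the cutoff. H3K9ac gene body density was called in 0 members in either direction, against 4.27% higher and 4.68% lower of all genes, or 0.222% and 0.622% of long genes, and its log2 ratios ran from -0.15 at Lamb2 to 0.07 at Lama4. Densities of the members kept their order between the tumors, with Spearman correlations of 0.74 for H3K4me3, 0.84 for H3K9ac, 0.77 for H3K27me3 and 0.80 for H3K36me3 over 37 genes. Promoter numbers kept it less, with 0.61, 0.43 and 0.11 for H3K4me3, H3K9ac and H3K27me3. The corresponding values for promoters of long genes were 0.62, 0.43 and 0.49.

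The 16 cytoplasmic partners are proteins that link integrins to actin or signal from them. Their H3K27me3 gene body density was called higher in LLC-R in 6 of 16, Tln1, Vcl, Fermt2, Lims1, Pxn and Parva, and lower in 0, where 24.2% of all genes were higher and 4.36% lower. Of these 6, all but Fermt2 were among the long genes of lowest LLC-NR density, up to 2.19 per kb, of which 76.4% were called higher. Fermt2 was in the next group, of which 20.8% were called higher. Tln1, the talin that activates integrins, had 2.02 and 3.43 H3K27me3 peaks per kb and 4.04 and 4.30 H3K36me3 peaks per kb. Vcl, which encodes vinculin, had 1.93 and 3.29 H3K27me3 peaks per kb. H3K36me3 was called lower in 3 (Lims1, Itgb1bp1 and Tln1) and higher in 1 (Lims2), where 16.2% of all genes were lower and 12% higher. Of the 13 ligands and basement membrane genes, 0 were called in H3K27me3, and H3K36me3 was lower in 3 (Fn1, Vcam1, Dag1) and higher in 2 (Madcam1, Bcam). Fn1, which encodes fibronectin, had 3.96 and 4.05 H3K36me3 peaks per kb and 3.75 and 4.30 H3K27me3 peaks per kb. Promoters of the partners past 1.5-fold in H3K4me3 were 0 higher and 1 lower (Tln2), and those of the ligands 0 in either direction, beside 7.29% higher and 10.4% lower of all promoters.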

How the data were processed

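ChIP-seq libraries of 4 histone marks from LLC-NR and LLC-R isografts were analysed, 8 libraries in all and 1 per line and mark. Per the labels and the methods of the study, the authors mapped reads with Bowtie 0.12.7 to mm9, kept uniquely mapped reads and called nucleosome-sized peaks in each library with GeneTrack, whose settings are not given in the sources used here. The deposited files list peak positions only, all 147 bp wide and without height, and hold 5660458 to 9101721 peaks per library. No input library was used.

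Genes were the 22367 protein-coding genes of GENCODE vM1 on the autosomes and sex chromosomes, each at the TSS shared by most transcripts. Sequence was NCBIM37, the assembly of mm9. Midpoints were counted in promoters, which reach 1 kb before and 0.5 kb past the TSS, and over gene bodies per kb, with Python 3.11.15, NumPy 2.4.6 and pandas 2.3.3. Counting was tested on simulated data. Log2 ratios divide by each library's own peaks and add a pseudocount of 10% of the mean. Calls are 1.5-fold at promoters and a log2 ratio of 0.32 in gene bodies, without a test, since 1 library per group allows none. HCPs have an interval of 500 bp with G/C of at least 55% and CpG O/E of at least 0.6, LCPs none with O/E of at least 0.4. Peak numbers saturate in deep libraries. Genes, lists and named genes (all leukocyte-restricted members, a fixed set of 12 others, every member past a fold, and the extremes of each mark) were chosen with earlier results of these data known, and the other members named were chosen after their values were seen. Alternatives were other promoter and body regions, TSS choices, scalings, pseudocount and lists. One, Itga6 at its CpG-rich TSS, was added after seeing the data. The leukocyte marker Spi1 was not matched in the annotation by symbol. The values of 1 member and 1 leukocyte marker are not reported here one by one, and the member was not drawn in plots of single genes.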

Additional observations from a re-analysis of the deposited data

How the results depend on the processing

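No paired analysis was possible because each line had 1 library per mark. Of 174 alternative values, 138 stayed near the reported one, within 1 SD over the members with no change of sign or, for counts of called members, within 1.5 times. These include values that could not move, since the limit to genes of at least 10 kb keeps all 37 members. A reported difference of 0 could not change sign either. For promoter differences between lists the allowed 1 SD was wide, at 0.91 to 1.74 peaks. Counts were compared by their totals, which can hide a turn of direction, as in H3K4me3 promoters, where 1 higher and 3 lower became 3 higher and 0 lower with 2 kb upstream to 1 kb downstream. Division by uniquely mapped reads had the widest effect. Median promoter log2 ratios became 0.26 for H3K4me3 and 0.59 for H3K9ac, both reversed, and -0.90 for H3K27me3, and gene body medians became 0.32, 0.69, -0.86 and -0.84 for H3K4me3, H3K9ac, H3K27me3 and H3K36me3. Called promoters were then 7, 20 and 31 of 37, and called gene bodies 18, 37, 36 and 37. The median of all promoters was then 0.26, 0.61 and -0.84, and that of all gene bodies was 0.27, 0.68, -0.71 and -0.85. These shifts thus ran over genes in general. With no scaling, medians reversed to 0.20 for H3K27me3 promoters and to -0.12, 0.23 and 0.38 for H3K9ac, H3K27me3 and H3K36me3 bodies, with 13 and 22 gene bodies called in the last 2 marks. The medians of all genes were then 0.26 for H3K27me3 promoters and -0.13, 0.39 and 0.36 for these bodies. For both of these scalings the share of all genes called is not given.

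With 0.5 kb on either side of the TSS, members past 1.5-fold were 11, 6 and 13 for H3K4me3, H3K9ac and H3K27me3, beside 22.2%, 17.3% and 31.1% of all promoters. In that region the H3K9ac difference of leukocyte-restricted minus widely used promoters in LLC-R reversed from -1 to 1. With 2 kb upstream to 1 kb downstream, 1 promoter each was past the fold in H3K9ac and H3K27me3, beside 3.81% and 8.61% of all, and likewise with a pseudocount of 50%, beside 3.17% and 6.38%. With surroundings subtracted, called gene bodies went from 1 to 0 in H3K4me3, from 3 to 5 in H3K27me3 and from 4 to 0 in H3K36me3. The medians of all gene bodies were then -0.01, 0.07 and -0.07, and the share of all genes called is not given. At the most upstream TSS the H3K27me3 promoter difference between the lists in LLC-R moved from 0 to -1. With Itga4 and Itga2b added, gene body differences reversed to 0.15 for H3K4me3 in LLC-NR and to 0.0315 and 0.10 for H3K27me3 in LLC-NR and LLC-R. Bodies from 0.5 kb downstream reversed the LLC-NR H3K27me3 difference to 0.0589. The causes were not tested.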

Other observations

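H3K36me3 peaks in the promoter window, which no comparison above uses, were more numerous in LLC-R at all 7 leukocyte-restricted integrins, at 26 of the 30 other members and at 78% of all promoters, in a library with more peaks. The numbers in LLC-NR and LLC-R were 1 and 6 at Itgal, 3 and 7 at Itgam, 4 and 7 at Itgax, 2 and 4 at Itgad, 3 and 4 at Itgae, 5 and 7 at Itgb2, and 5 and 8 at Itgb7. The median of the list was 3 in LLC-NR against 7 in LLC-R, beside 3 and 5 over all promoters. With each gene cut at its midpoint, 0 of 7 leukocyte-restricted genes had a higher H3K4me3 density in the downstream part in LLC-NR, with a median difference of -0.57 peaks per kb beside -0.25 over long genes, and 2 of 7 did in LLC-R. The widely used integrins went the same way, with 2 of 11 in LLC-NR, a median difference of -0.17, and 4 of 11 in LLC-R. So did the tissue-restricted integrins, with 2 of 6 and 1 of 6. Of the laminin chains, 7 of 11 had the higher density downstream in LLC-NR and 5 of 11 in LLC-R. Over the 13506 long genes this held for 3723 in LLC-NR and 4702 in LLC-R.

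Itgam has 2 other annotated TSSs. The one 8.01 kb downstream had 7 H3K4me3 peaks in LLC-NR against 2 in LLC-R, a wider gap than the 6 and 5 at the TSS used above, and the one 53.8 kb downstream had 2 and 4, the opposite direction.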
